A study of Homo sapiens with 4 samples.

Results

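The genes described here are 35 genes of protein folding and quality control in the endoplasmic reticulum (ER), with the sensors of the unfolded protein response. They were taken by name from a table of 40205 genes and are 11 chaperones and co-chaperones, 9 disulfide and prolyl isomerase enzymes, 6 genes of ER-associated degradation, 4 sensor and signalling genes and 5 genes of the translocon and signal peptide processing. All 35 were found and all 35 entered the comparisons, which covered 16098 genes. Poly(A) RNA had been sequenced from U87MG and U251, established human glioblastoma cell lines. In each line an SRSF1 knockdown (KD) library was set against a control library that the labels call WT. KD cells carried a lentiviral short hairpin against SRSF1, which encodes a splicing regulator of the SR protein family. WT cells carried the negative control hairpin, so all 4 libraries came from cells infected at a multiplicity of 20 and selected with puromycin for 1 week. There was 1 library per line and arm. A difference within a line therefore has no replicate check, and the knockdown is replicated only across the 2 lines.

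Proteins that enter the secretory pathway pass the Sec61 channel into the ER, where chaperones hold them, isomerases form their disulfide bonds and degradation complexes remove those that fail to fold. When unfolded protein accumulates, 3 membrane sensors, IRE1 (gene ERN1), PERK (gene EIF2AK3) and ATF6, start the unfolded protein response. IRE1 splices XBP1 mRNA and ATF6 is cleaved, and both factors are known to act on ER stress elements in the promoters of chaperone genes, while PERK slows translation. Cells that secrete much protein are known to hold large pools of ER chaperone mRNA.

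The promoters come before the values because several of these genes are textbook targets of the same elements. RefSeq promoter windows on GRCh38.p14, from 250 bases before the start of the gene to 50 after it, were matched by symbol for 32 of the 35 genes. The ER stress element (ERSE), searched on both strands as CCAAT, any 9 bases and CCACG, was found in 6 of these 32 windows (18.8%), against 22 of all 27305 windows (0.0806%), which include the 6. These were HSPA5, HSP90B1, CALR, CANX, CRELD2 and XBP1. The shorter ERSE-II, searched on both strands as ATTGG, any base and CCACG, was found in HYOU1, SDF2L1 and HERPUD1, which is 9.38% of the 32, against 15 of all windows (0.0549%). No gene held both forms, and 9 of 32 (28.1%) held either, against 37 of 27305 (0.136%). Because the list includes known targets of these elements, the excess over all windows was in part built into the choice of genes. It is not a finding about these data. A match is a description of letters, not evidence of binding, and a window with no match says nothing about a factor.

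The stretches that carry the ERSE or ERSE-II match are shown with 6 bases on each side, on the strand of the gene, with the match in capitals. A match on the other strand reads from CGTGG to ATTGG or CCAAT.
HSPA5 (chr9:125241385-125241415, reverse strand): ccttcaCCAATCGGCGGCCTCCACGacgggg
HSP90B1 (chr12:103930210-103930240, forward strand): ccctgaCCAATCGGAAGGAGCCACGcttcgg
HSP90B1 (chr12:103930315-103930345, forward strand): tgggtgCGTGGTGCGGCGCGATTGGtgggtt
CALR (chr19:12938378-12938408, forward strand): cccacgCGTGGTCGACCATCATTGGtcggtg
CANX (chr5:179698772-179698802, forward strand): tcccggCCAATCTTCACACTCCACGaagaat
CRELD2 (chr22:49918548-49918578, forward strand): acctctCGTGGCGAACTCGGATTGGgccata
XBP1 (chr22:28800597-28800627, reverse strand): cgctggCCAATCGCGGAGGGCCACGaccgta
HYOU1 (chr11:119057374-119057396, reverse strand): ccgtgaCGTGGTCCAATcccagg
HYOU1 (chr11:119057268-119057290, reverse strand): ctgggaCGTGGTCCAATgagtac
SDF2L1 (chr22:21642108-21642130, forward strand): cggaagCGTGGACCAATcaaaac
HERPUD1 (chr16:56932019-56932041, forward strand): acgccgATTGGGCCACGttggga
The HSPA5 match starts 66 bases before the start of the gene, the XBP1 match 52 bases, the HERPUD1 match 117 bases and the CALR match 225 bases. HSP90B1 held 2 ERSE matches, from 194 and from 89 bases before the start, and HYOU1 held 2 ERSE-II matches, from 185 and from 79 bases. The core of the XBP1 element, TGACGTGG, was searched on both strands and found in HYOU1 alone of the 32, where it overlaps the farther ERSE-II match, and in 0.795% of all windows. The cyclic AMP element TGACGTCA and the C/EBP-ATF element TGATGNAAT, on which ATF4 is known to act, were in 0 of the 32 windows, against 1.98% and 1.02% of all windows. The 5-letter boxes of which the ERSE is built were common. CCACG was in 21 of 32 windows against 37.9% of all, and CCAAT in 27 of 32 against 35.7% of all.

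The 250 bases before the start are shown in full for 3 genes, HSPA5, CALR and HERPUD1, with the same match in capitals. Each holds a match and was higher in the KD library of each line, so these genes do not represent the whole list. DNAJB9, also higher in both KD libraries, has no match in its window, and CRELD2, lower in both, has an ERSE match. The HSPA5 bases are chr9:125241344-125241593 on the reverse strand, the CALR bases chr19:12938359-12938608 on the forward strand and the HERPUD1 bases chr16:56931892-56932141 on the forward strand.
HSPA5: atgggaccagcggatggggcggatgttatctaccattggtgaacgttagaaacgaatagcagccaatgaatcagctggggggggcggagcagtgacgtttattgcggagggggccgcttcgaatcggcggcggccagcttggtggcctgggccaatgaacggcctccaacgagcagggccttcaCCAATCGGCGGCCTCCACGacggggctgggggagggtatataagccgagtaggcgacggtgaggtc
CALR: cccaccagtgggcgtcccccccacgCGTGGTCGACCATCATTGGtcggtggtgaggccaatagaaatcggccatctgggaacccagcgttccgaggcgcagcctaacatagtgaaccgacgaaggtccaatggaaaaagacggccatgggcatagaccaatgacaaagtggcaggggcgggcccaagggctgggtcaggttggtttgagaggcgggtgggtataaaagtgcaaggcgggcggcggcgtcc
HERPUD1: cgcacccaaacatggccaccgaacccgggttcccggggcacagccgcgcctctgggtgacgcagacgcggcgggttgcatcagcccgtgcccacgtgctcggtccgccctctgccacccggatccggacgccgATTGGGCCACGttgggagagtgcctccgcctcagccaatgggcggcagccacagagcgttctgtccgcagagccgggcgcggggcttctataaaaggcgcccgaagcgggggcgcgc
Each of the 3 windows held 1 match.

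Library totals were those implied by the RPKM values of miRNA genes at their hairpin lengths. The libraries held 25974900 reads in U87MG KD, 26298575 in U87MG WT, 27953878 in U251 KD and 25099799 in U251 WT. Values are RPKM, read counts scaled to the length of the gene model and the size of the library. The targeted gene was lower in both libraries labelled KD. SRSF1 had 14.6 RPKM in U87MG KD against 88.3 in U87MG WT, and 15.8 RPKM in U251 KD against 109 in U251 WT (limma estimate -2.62 ± 0.16 on the log2 scale, SE, 2 libraries per arm, adjusted p = 0.0022). A share of 0.594 of the 31-base words of SRSF1 occurs in another annotated gene. The 10 glial and glioma markers summed to 1286 RPKM in U87MG KD against 1863 in U87MG WT, and to 1397 RPKM in U251 KD against 1630 in U251 WT. Among them VIM (1065 to 1675 RPKM) and CD44 (124 to 184 RPKM) were the highest in all 4 libraries, while the astrocyte marker GFAP was at most 1.47 RPKM. The progenitor factor SOX2 was at most 0.121 RPKM in U87MG. The summed markers of neurons, endothelium and epithelium were at most 8.65, 0.498 and 0.922 RPKM. The immune list summed to 111 RPKM in U87MG KD, 62.6 in U87MG WT, 11.0 in U251 KD and 8.80 in U251 WT, nearly all of it CD68, while PTPRC was at most 0.0213 RPKM. Of the 5 immune markers, CD3E and MS4A1 were listed at 0 in every library. The part of the glial and immune markers in the results below was not tested.

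The 35 genes together took 3.28% of all reads in U87MG KD against 2.34% in U87MG WT, and 1.37% in U251 KD against 1.22% in U251 WT. Their summed level was 13973 RPKM in U87MG KD against 9728 in U87MG WT, and 5996 RPKM in U251 KD against 5041 in U251 WT. HSPA5, HSP90B1 and CALR made up 66.5% of that sum in U87MG KD, 61.0% in U87MG WT, 49.7% in U251 KD and 44.5% in U251 WT. At the other end ERN1 was the lowest member in every library, at 2.48 RPKM in U87MG KD against 3.13 in U87MG WT and 0.551 RPKM in U251 KD against 0.469 in U251 WT. ERN1 was the only member under an RPKM of 1 in any library. Members rested on 94 reads (ERN1 in U251 WT) to 285736 reads (HSP90B1 in U87MG KD). In bulk RNA a change in the share of cells that express a gene and a change in RNA per cell cannot be told apart.

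**Figure D1:**
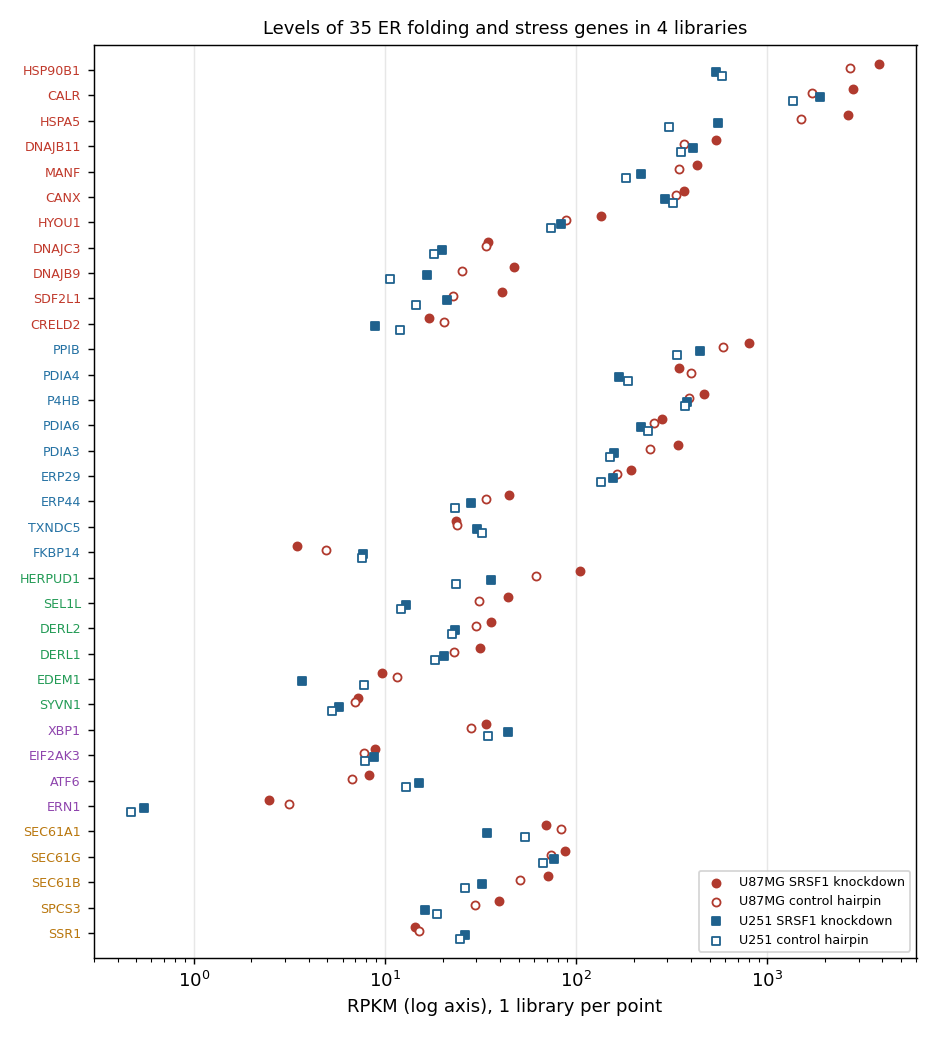
Level of each of the 35 genes in RPKM on a log axis, with 1 point per library: filled red circles U87MG KD, open red circles U87MG WT, filled blue squares U251 KD and open blue squares U251 WT. Gene names are coloured by class. HSP90B1 and HSPA5 stand far to the right in both U87MG libraries compared with U251, while CALR lies between 1358 and 2792 RPKM in all 4 libraries.

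The first question was how the knockdown libraries differed from their controls across the lines. Of the 35 genes, 2 rose and 0 fell (limma on log2 of RPKM + 1 with the cell line as a block, Benjamini-Hochberg adjusted p under 0.05 over 16098 genes). In the background 1.16% of all genes tested were called higher and 2.61% lower. In numbers these were 186 genes higher and 420 lower, against 303 and 505 after quantile normalization and 6 and 5 after median-ratio rescaling. The 2 that rose were HSPA5 and CALR. Before adjustment, 8 members were higher and 2 lower with a p under 0.05, where 8.29% of all genes tested were higher and 12.8% lower. Most of the others also lay above 0, with 23 of 35 higher in the KD library of both lines and 5 lower in both, against 29.3% and 36.5% of all genes tested. The median log2 ratio of the 35 was 0.26 in U87MG and 0.14 in U251, where the medians over all genes tested were -0.05 and -0.0037.

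HSPA5 encodes BiP, the Hsp70 of the ER lumen, which also holds the sensors inactive when folding demand is low. It had 2654 RPKM in U87MG KD against 1500.5 in U87MG WT, and 553 RPKM in U251 KD against 306 in U251 WT. The KD library was the higher in each line, and both U87MG libraries lay above both U251 libraries. In reads scaled to library size, KD over WT was 1.77 in U87MG, with an exact 95% Clopper-Pearson interval of 1.75 to 1.78, and 1.81 in U251 (1.77 to 1.85). Such intervals, here and below, cover counting error only. Across lines the estimate was 0.84 ± 0.13 on the log2 scale (SE, 2 libraries per arm, adjusted p = 0.021 by limma). Over 7 other settings the adjusted p by limma ran from 0.00087 to 1 and the call was lost in 4 of them, although the estimate stayed between 0.64 and 0.90. With no filter on low values, or with no block for the cell line, no gene at all was called, SRSF1 included. By rank HSPA5 was number 11 of all genes in U87MG KD against 19 in U87MG WT, and number 83 in U251 KD against 149 in U251 WT.

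CALR encodes calreticulin, the soluble lectin chaperone that binds glycoproteins and stores calcium. It had 2792 RPKM in U87MG KD against 1721 in U87MG WT, and 1889 RPKM in U251 KD against 1358 in U251 WT. The KD library was again the higher in each line. The ratio by reads was 1.62 in U87MG (1.61 to 1.64) and 1.39 in U251 (1.38 to 1.40). The estimate was 0.59 ± 0.12 (adjusted p = 0.047 by limma), close to the threshold, and the call was kept in 1 of 7 other settings (adjusted p 0.0031 to 1). CANX, calnexin, is the membrane-bound lectin chaperone that works with calreticulin. It had 368 RPKM in U87MG KD against 332 in U87MG WT, and 291 RPKM in U251 KD against 320.3 in U251 WT, with an estimate of 0.00 ± 0.15 (adjusted p = 0.99 by limma). CALR stood at 7.60 times the RPKM of CANX in U87MG KD against 5.18 in U87MG WT, and at 6.50 in U251 KD against 4.24 in U251 WT. Both genes hold an ERSE match in their promoter windows.

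Among the 11 chaperones and co-chaperones, 10 lay above 0 in U87MG, where the class median was 0.56, and 8 in U251, where it was 0.22. Past 1.5-fold upwards were 5 of the 11 in U87MG and 2 in U251, with 0 downwards in either line. Over all genes tested, 7.68% passed 1.5-fold upwards and 11.5% downwards in U87MG, and 5.01% and 7.73% in U251. Over all 35 members the counts were 6 upwards and 0 downwards in U87MG and 3 upwards and 2 downwards in U251. No member of any class reached 2-fold in either line on this scale of RPKM + 1, although the reads of EDEM1 in U251, given below, did.

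DNAJB9 (ERdj4), a J-domain co-chaperone of BiP that also binds IRE1, had 47.4 RPKM in U87MG KD against 25.3 in U87MG WT, and 16.6 RPKM in U251 KD against 10.7 in U251 WT. Its estimate was 0.74 ± 0.17 (adjusted p = 0.060 by limma). SDF2L1, a lumenal partner of the J-domain proteins, had 40.7 RPKM in U87MG KD against 22.8 in U87MG WT, and 21.1 RPKM in U251 KD against 14.5 in U251 WT. Its estimate was 0.66 ± 0.17 (adjusted p = 0.081 by limma). Both genes were higher in the KD library of each line, and neither passed the threshold over all genes.

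HYOU1 (GRP170), a nucleotide exchange factor of BiP, had 135 RPKM in U87MG KD against 89.0 in U87MG WT, and 83.5 RPKM in U251 KD against 74.0 in U251 WT. DNAJB11 (ERdj3), a secreted and lumenal co-chaperone of BiP, had 536 RPKM in U87MG KD against 364 in U87MG WT, and 409 RPKM in U251 KD against 352 in U251 WT. For both genes the read ratio was larger in U87MG, at 1.52 (1.48 to 1.56) for HYOU1 and 1.47 (1.44 to 1.501) for DNAJB11, than in U251, at 1.13 (1.097 to 1.16) and 1.16 (1.14 to 1.19). Neither was called by limma (adjusted p = 0.25 and 0.20). MANF, a protein secreted under ER stress that binds BiP, had log2 ratios of 0.32 in U87MG and 0.27 in U251. DNAJC3 (p58IPK), a co-chaperone that binds unfolded protein and dampens PERK, had ratios of 0.04 and 0.14.

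HSP90B1 (GRP94), the Hsp90 of the ER lumen, did not follow HSPA5 in U251. It had 3844 RPKM in U87MG KD against 2712 in U87MG WT, and 540.1 RPKM in U251 KD against 579 in U251 WT. The read ratio was 1.42 in U87MG (1.41 to 1.43) and 0.933 in U251 (0.920 to 0.945), on opposite sides of 1. The level of HSPA5 relative to HSP90B1 was 0.691 in U87MG KD against 0.553 in U87MG WT, and 1.02 in U251 KD against 0.528 in U251 WT. The WT libraries of both lines were close in this quantity, and the KD library was higher in each line. CRELD2, a disulfide-isomerase-like protein induced by ER stress, had 17.1 RPKM in U87MG KD against 20.5 in U87MG WT, and 8.86 RPKM in U251 KD against 11.9 in U251 WT. It was the only chaperone-class gene lower in the KD library of both lines (log2 ratios -0.25 and -0.39, adjusted p = 0.31 by limma), although its promoter window holds an ERSE match.

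**Figure D2:**
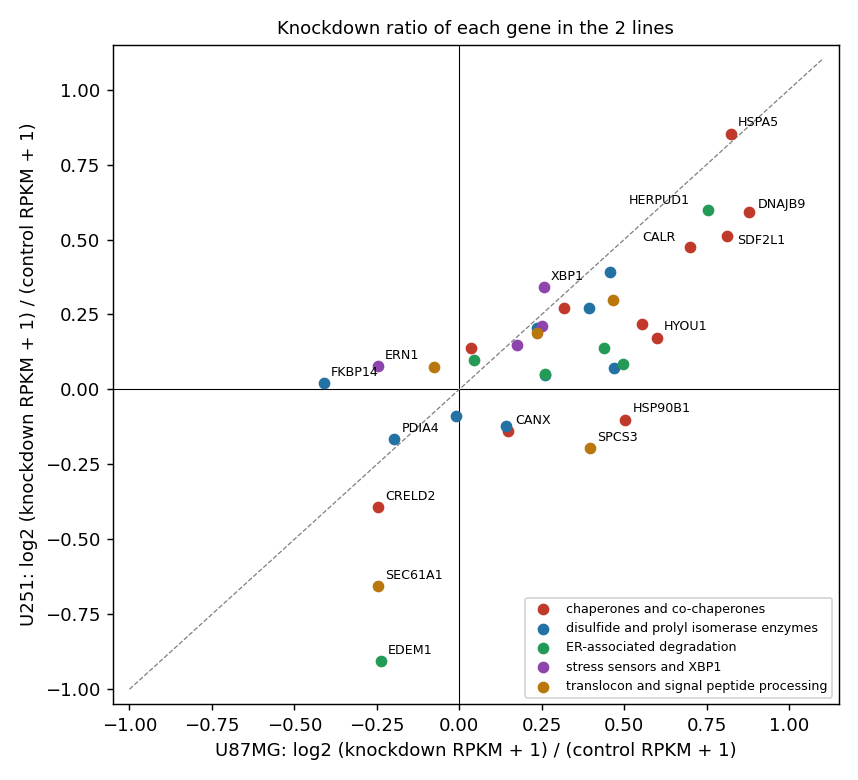
Log2 ratio of knockdown over control RPKM + 1 for each of the 35 genes, in U87MG on the x axis and U251 on the y axis, 1 library per arm, coloured by class. The dashed line marks equal ratios. HSPA5 lies close to it at 0.82 and 0.85, DNAJB9, SDF2L1, CALR and HERPUD1 lie to the upper right and below it, and EDEM1 and SEC61A1 lie at the lower left.

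Of the 9 disulfide and prolyl isomerase enzymes, 6 lay above 0 in each line and none reached 1.5-fold in either direction in either line. The class median was 0.24 in U87MG and 0.05 in U251, and after quantile normalization the U251 median was -0.06. PPIB, cyclophilin B, a prolyl isomerase of collagen folding, had the largest estimate of the class. It had 805 RPKM in U87MG KD against 586 in U87MG WT, and 442 RPKM in U251 KD against 337 in U251 WT (0.42 ± 0.13, adjusted p = 0.13 by limma). ERP44, which retains unassembled proteins in the early secretory pathway, had ratios of 0.39 and 0.27. PDIA3 (ERp57), the disulfide isomerase that works with calreticulin and calnexin, had 339 RPKM in U87MG KD against 245 in U87MG WT, and 158 RPKM in U251 KD against 151 in U251 WT. Its read ratio was 1.39 in U87MG (1.36 to 1.41) and 1.05 in U251 (1.03 to 1.08).

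The other disulfide isomerases were nearer to 0. P4HB, the classical protein disulfide isomerase and a subunit of collagen prolyl hydroxylase, had ratios of 0.26 and 0.05, and ERP29, a lumenal chaperone of the isomerase family, 0.24 and 0.20. PDIA6, which also binds IRE1, had ratios of 0.14 and -0.12. PDIA4 (ERp72) was lower in both KD libraries, with 347 RPKM in U87MG KD against 398 in U87MG WT, and 167 RPKM in U251 KD against 187 in U251 WT (-0.18 ± 0.14, adjusted p = 0.51 by limma). TXNDC5 had ratios of -0.01 and -0.09, but a share of 0.896 of its 31-base words also occurs in a read-through gene at the same locus, so its value is uncertain. FKBP14, a prolyl isomerase of collagen folding, had 3.47 RPKM in U87MG KD against 4.94 in U87MG WT, and 7.69 RPKM in U251 KD against 7.57 in U251 WT.

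Among the 6 genes of ER-associated degradation, 5 lay above 0 in both lines and EDEM1 lay below 0 in both. The class median was 0.35 in U87MG and 0.09 in U251. HERPUD1 (Herp), a membrane scaffold of the degradation complex and an early stress-induced gene, had 104 RPKM in U87MG KD against 61.4 in U87MG WT, and 36.0 RPKM in U251 KD against 23.4 in U251 WT. It was at least 1.5-fold higher in each line, with read ratios of 1.70 (1.62 to 1.78) and 1.54 (1.43 to 1.66), and the estimate of 0.68 ± 0.16 did not pass over all genes (adjusted p = 0.065 by limma).

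EDEM1, a mannosidase-like lectin that hands misfolded glycoproteins to degradation, lay on the other side of its controls. It had 9.62 RPKM in U87MG KD against 11.5 in U87MG WT, and 3.70 RPKM in U251 KD against 7.82 in U251 WT. The read ratio was 0.835 in U87MG (0.780 to 0.894) and 0.474 in U251 (0.430 to 0.522), the lowest of any member in U251, with an estimate of -0.57 ± 0.20 (adjusted p = 0.16 by limma). SEL1L, the partner of the ubiquitin ligase SYVN1, had 43.9 RPKM in U87MG KD against 30.9 in U87MG WT, and 13.0 RPKM in U251 KD against 12.1 in U251 WT. SYVN1 (HRD1) itself, the second lowest member by mean WT level after ERN1, had 7.23 RPKM in U87MG KD against 6.98 in U87MG WT, and 5.73 RPKM in U251 KD against 5.29 in U251 WT. Its log2 ratios were 0.05 and 0.10. The channel-like derlins had ratios of 0.44 and 0.14 for DERL1 and of 0.26 and 0.05 for DERL2.

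No gene of the sensor class was called. EIF2AK3 (PERK) had 8.91 RPKM in U87MG KD against 7.78 in U87MG WT, and 8.79 RPKM in U251 KD against 7.84 in U251 WT. ATF6 had 8.23 RPKM in U87MG KD against 6.76 in U87MG WT, and 15.1 RPKM in U251 KD against 12.9 in U251 WT. XBP1 had 33.9 RPKM in U87MG KD against 28.2 in U87MG WT, and 44.1 RPKM in U251 KD against 34.6 in U251 WT. These 3 were higher in the KD library of each line by log2 ratios of 0.15 to 0.34 (adjusted p = 0.61 for EIF2AK3, 0.46 for ATF6 and 0.34 for XBP1 by limma). ERN1, at the levels given above, had a read ratio of 0.792 in U87MG (0.704 to 0.890), and in U251 its ratio of 1.17 (0.891 to 1.55) did not differ from 1 beyond counting error. Gene-level RPKM does not show the spliced form of XBP1 or the cleavage of ATF6, so sensor activity was not measured.

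Among the translocon genes the channel subunit SEC61A1 stood apart from its partners. It had 70.0 RPKM in U87MG KD against 83.1 in U87MG WT, and 34.1 RPKM in U251 KD against 54.2 in U251 WT. Its read ratio was 0.841 (0.815 to 0.869) in U87MG and 0.628 (0.602 to 0.655) in U251, and the estimate was -0.45 ± 0.17 (adjusted p = 0.20 by limma). SEC61B, a small subunit of the same channel, had 70.9 RPKM in U87MG KD against 51.0 in U87MG WT, and 32.3 RPKM in U251 KD against 26.1 in U251 WT (0.38 ± 0.16, adjusted p = 0.23 by limma). SEC61G, the other small subunit, had ratios of 0.23 and 0.19. SEC61A1 and SEC61B therefore lay on opposite sides of their controls in both lines. SPCS3, a subunit of signal peptidase, had 39.3 RPKM in U87MG KD against 29.6 in U87MG WT, and 16.3 RPKM in U251 KD against 18.8 in U251 WT. SSR1, of the translocon-associated complex, had ratios of -0.08 and 0.08.

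Set beside the promoter matches, the 9 genes with an ERSE or ERSE-II match had a median log2 ratio of 0.60 in U87MG and 0.34 in U251. The 23 genes with a window but no match had medians of 0.24 and 0.10. Above 0 in U87MG lay 8 of the 9 with a match and 17 of the 23 without. In U251 these counts were 6 of the 9 and 17 of the 23. The ranges overlapped widely, from -0.25 to 0.82 with a match and from -0.25 to 0.88 without in U87MG, and from -0.39 to 0.85 with and from -0.91 to 0.59 without in U251. Genes with a match also had higher levels, with a median of 89.0 RPKM in U87MG WT against 33.6 RPKM for those without. Apart from HERPUD1 and XBP1, all genes with a match were chaperones and co-chaperones, a class with medians of 0.56 and 0.22. The parts of match, class and level in these medians were not tested. DNAJB9, with the highest U87MG ratio of all 35, has no match in its window, while CANX and CRELD2, each with an ERSE match, had estimates of 0.00 and -0.32.

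**Figure D3:**
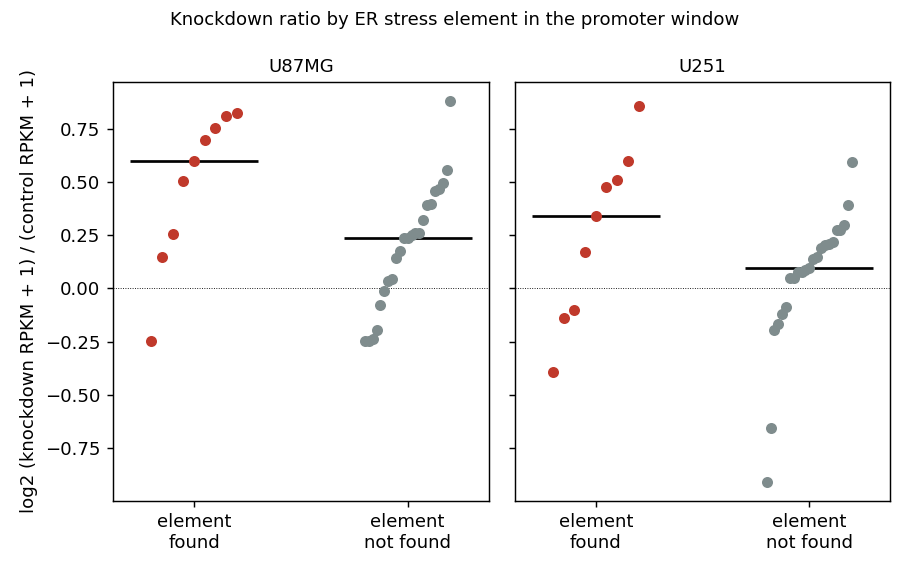
Log2 ratio of knockdown over control RPKM + 1 in U87MG (left) and U251 (right) for the 9 genes with an ERSE or ERSE-II match in the promoter window (red) and the 23 genes with a window and no match (grey). Each point is 1 gene, and the black bars are medians, at 0.60 and 0.24 in U87MG and at 0.34 and 0.10 in U251. The points of both kinds overlap in each line.

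The next question was whether the response had the same size in the 2 lines. The lines share no library, and the Pearson correlation of the ratios over the 35 genes was 0.74 and the Spearman correlation 0.69, against 0.48 and 0.49 over all genes tested. These describe genes within the same 4 libraries, which are not independent, and carry no p-value. The 35 genes also had higher levels, with a median of 33.8 RPKM in U87MG WT against 6.51 over all genes tested. The part of level in these correlations was not tested. The U87MG ratio was the larger of the pair in 27 of 35 genes, against 42.9% of all genes tested. After quantile normalization the count was 26, against 47.2% of all genes tested, and after median-ratio rescaling 31, against 51.3%. A difference between the lines could not be tested, because the interaction of line and arm leaves no residual degree of freedom. HSPA5, with 0.82 in U87MG and 0.85 in U251, had nearly equal ratios, while HSP90B1 (0.50 and -0.10), SPCS3 (0.40 and -0.20) and HYOU1 (0.60 and 0.17) were among those with the larger ratio in U87MG. By counting intervals, 20 genes were above 1 in both lines, 4 were below 1 in both, and 11 were neither. Among the 16097 tested genes with recovered reads, 14.6% were above 1 in both lines and 20.2% below. The width of such an interval depends on the depth of the gene.

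The last question was how the levels differed between the lines. By the line coefficient of the same fit, 20 of the 35 genes were called higher in U87MG than in U251 and 3 were called lower. Over all genes tested, 21.6% were called higher and 27.0% lower. For this coefficient the KD and WT libraries of a line stand in as its replicates. Between the WT libraries alone 16 were at least 1.5-fold higher in U87MG and 2 at least 1.5-fold lower, where the backgrounds were 19.7% and 23.0%. At 2-fold the counts were 7 higher and 0 lower, against 9.48% and 12.1% of all genes tested. The median log2 ratio of the WT libraries was 0.51 over the 35 genes and -0.02 over all genes tested.

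BiP and GRP94 had the largest line estimates of the 35. HSPA5 was 4.91 times as high in U87MG WT as in U251 WT by reads (4.82 to 4.99), with a line estimate of 2.28 ± 0.13 (adjusted p = 9.2e-06 by limma). HSP90B1 was 4.68 times as high (4.63 to 4.73), with an estimate of 2.53 ± 0.16 (adjusted p = 1.8e-05 by limma). CALR, the third of the abundant chaperones, was only 1.27 times as high (1.25 to 1.28), with an estimate of 0.45 ± 0.12 (adjusted p = 0.018 by limma), and CANX, P4HB, PDIA6 and DNAJB11 differed by at most 0.23 in estimate and were not called. DNAJB9 (1.32 ± 0.17), HERPUD1 (1.43 ± 0.16), SEL1L (1.48 ± 0.18), PDIA4 (1.07 ± 0.14) and SEC61B (1.03 ± 0.16) were also higher in U87MG, each by at least 1 on the log2 scale.

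The sensors split between the lines. ERN1 was 6.67 times as high in U87MG WT as in U251 WT by reads (5.37 to 8.37), the largest ratio of the 35, with an estimate of 1.33 ± 0.20 on the log2 (RPKM + 1) scale, which understates it (adjusted p = 0.0014 by limma). ATF6 was lower in U87MG, at 0.523 times the U251 level (0.489 to 0.559), with an estimate of -0.82 ± 0.16 (adjusted p = 0.0045 by limma). EIF2AK3 had an estimate of 0.00 ± 0.16 and XBP1 one of -0.33 ± 0.16, neither called. The other genes called lower in U87MG were FKBP14 (-0.74 ± 0.18) and SSR1 (-0.75 ± 0.16). TXNDC5 also lay lower (-0.38 ± 0.16) but was not called. The direction of the line difference was the same in both arms for 34 of the 35 genes, the exception being EIF2AK3, which was near 0 in both.

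**Figure D4:**
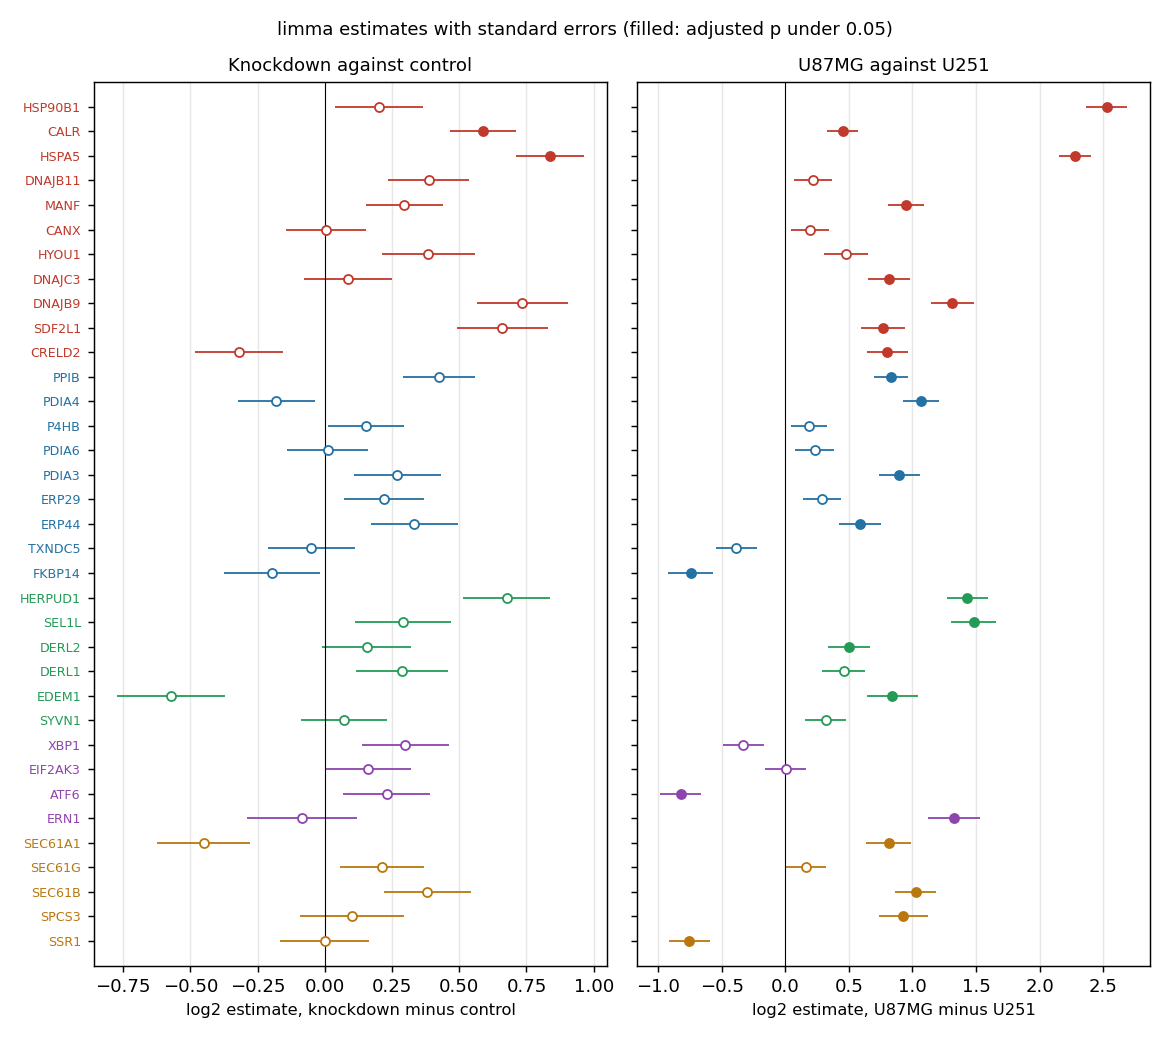
Estimates from limma with their standard errors for the 35 genes, on the log2 (RPKM + 1) scale, from 2 libraries per arm or per line. Knockdown minus control is on the left and U87MG minus U251 on the right, with filled points where the adjusted p is under 0.05. HSPA5 and CALR are filled on the left, and 23 genes are filled on the right, where HSP90B1 and HSPA5 lie beyond 2.

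Genes that work beside these 35 were followed as 7 lists. The shares of all genes tested that were called at the adjusted p, 1.16% higher and 2.61% lower, apply to the calls in each list. Of 38 other ER folding factors measured, 1 rose and 1 fell, and the median ratio was -0.01 in U87MG and 0.00 in U251. GANAB, the glucosidase that trims glycans for the calnexin and calreticulin cycle, rose (77.3 RPKM in U87MG KD against 41.6 in U87MG WT, and 61.5 RPKM in U251 KD against 29.4 in U251 WT, estimate 0.96 ± 0.16, adjusted p = 0.027 by limma). TXNDC15, a thioredoxin-domain membrane protein, fell (4.66 RPKM in U87MG KD against 14.3 in U87MG WT, and 6.97 RPKM in U251 KD against 20.4 in U251 WT, estimate -1.43 ± 0.16, adjusted p = 0.011 by limma). No gene was called among 31 other degradation genes (medians 0.07 and 0.07, and before adjustment 4 higher and 0 lower with a p under 0.05 by limma). None was called among 29 other translocon, signal peptidase and oligosaccharyltransferase genes (0.11 and -0.0016, with 4 higher and 1 lower) or among 27 genes of KDEL receptors and ER-Golgi transport (0.04 and 0.03, with 2 higher and 1 lower). The shares over all genes before adjustment, 8.29% higher and 12.8% lower, apply to these counts too. In these lists the 2 largest estimates belonged to VIMP (0.53 ± 0.16) and UBE2G2 (0.50 ± 0.16), to SEC11C (0.58 ± 0.19) and TUSC3 (0.55 ± 0.25), and to KDELR3 (-0.48 ± 0.20) and SURF4 (0.47 ± 0.16).

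Of 30 other regulators of the unfolded protein response, 4 rose and 1 fell, with medians of 0.13 and 0.17. DDIT3 (CHOP), a transcription factor of prolonged stress, had 564 RPKM in U87MG KD against 281 in U87MG WT, and 61.0 RPKM in U251 KD against 23.9 in U251 WT (1.16 ± 0.16, adjusted p = 0.019 by limma). ATF3, another stress-induced factor, had 154 RPKM in U87MG KD against 51.3 in U87MG WT, and 9.74 RPKM in U251 KD against 4.36 in U251 WT (1.29 ± 0.19, adjusted p = 0.021 by limma). TRIB3, a pseudokinase induced by CHOP, had 19.9 RPKM in U87MG KD against 8.28 in U87MG WT, and 5.44 RPKM in U251 KD against 2.26 in U251 WT (1.08 ± 0.16, adjusted p = 0.021 by limma). The fourth that rose, PPP1R15A (GADD34), is the phosphatase subunit that ends the translation block set by PERK. It was named after its value was seen and had an estimate of 1.04 ± 0.18 (adjusted p = 0.029 by limma). The KD library was the higher in each line for all 4. These genes are known to act downstream of PERK and ATF4. The activity of PERK and ATF4 was not measured, and their part in these values was not tested. TXNIP, an arrestin-like inhibitor of thioredoxin whose mRNA IRE1 and PERK are known to regulate, fell, in the opposite direction to these 4 genes. It had 6.20 RPKM in U87MG KD against 16.7 in U87MG WT, and 22.8 RPKM in U251 KD against 58.1 in U251 WT (-1.30 ± 0.16, adjusted p = 0.014 by limma).

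Chaperones of other compartments had medians nearer to 0 in U87MG. In U251 this did not hold for the mitochondrial list, with a median of 0.24 and 15 of 18 genes above 0. The 35 genes had a U251 median of 0.14, with 26 above 0, and the ER chaperone class one of 0.22. Of 38 measured cytosolic chaperones, 0 rose and 1 fell, where 1.16% of all genes tested were called higher and 2.61% lower. The median ratio of these chaperones was -0.04 in U87MG and -0.0049 in U251. The gene that fell was CCT3, a subunit of the chaperonin that folds actin and tubulin (72.4 RPKM in U87MG KD against 137 in U87MG WT, and 140 RPKM in U251 KD against 269 in U251 WT, estimate -0.93 ± 0.15, adjusted p = 0.025 by limma). Of 18 mitochondrial chaperones and proteases, 1 rose and 0 fell, with medians of 0.06 and 0.24. It was HSPA9, mortalin, the mitochondrial relative of BiP (479 RPKM in U87MG KD against 308 in U87MG WT, and 397 RPKM in U251 KD against 249 in U251 WT, estimate 0.65 ± 0.14, adjusted p = 0.049 by limma).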

How the data were processed

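Poly(A) RNA-seq libraries of U87MG and U251 cells, KD and WT, were grouped by their titles. The authors deposited RPKM values per gene, and the submitters' processing notes name Bowtie 0.12.2 and the build hg19. How reads were counted, with which annotation and strand setting, and how reads with several matches were treated is not given in the sources used here. All 4 value columns were used.

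Ratios are on log2 of RPKM + 1, which understates changes of low genes. Only genes that reached an RPKM of 1 in some library entered. limma 3.58.1 in R 4.3.3 was fitted to all 16098 genes with terms for line and arm. Variances were moderated by eBayes along mean level, tests were two-sided and p-values were adjusted by Benjamini-Hochberg. Each gene has 1 residual degree of freedom, which is the difference of its knockdown ratio between the lines. Most of the variance estimate is borrowed from other genes. Nothing states that the arms were cultured independently. The p-values reflect only how these libraries vary, and line differences and technical variation cannot be told apart in that. The lines pair the libraries, since KD and WT of a line are the same cells. Within a line only values are given, with 1.5-fold as the threshold.

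Low RPKM values fall on steps, each the worth of 1 read. Library totals were the modal totals implied by miRNA genes at their RefSeq hairpin lengths. Of 27973 genes with a value, 27928 (99.8%) then gave whole reads, to within 0.01, in every library at some model length of at most 40000 bases, and the shortest was taken. Of 500 genes with randomly altered values, 0.8% did. Recovered reads made up 96.3% to 97.4% of each total, and 1 read in a gene of 1 kilobase is worth 0.0358 to 0.0398 RPKM. No count test was run, since the deposited unit is RPKM.

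Of the 35 genes, 21 overlap an exon annotated on the other strand and 5 one on the same strand (GENCODE 29, GRCh38), and such reads cannot be told apart here. More than 15% of the 31-base words of 5 genes occur in another annotated gene (TXNDC5, HSP90B1, PDIA3, HSPA5 and DNAJB11). Promoter coordinates are those of GRCh38.p14, and none were converted from hg19.

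The genes, classes and lists were chosen with earlier results of these data known. All 35 genes are named. Library values are given for those called by limma, those past 1.5-fold in either line, the sensor class and the 2 highest and 2 lowest by mean WT level, with others added after their values were seen. Of the other lists, up to 4 called genes with the largest estimates are named, or the 2 largest estimates where none was called. PPP1R15A was named outside this rule after its value was seen. Alternatives were a pseudocount of 0.1, no filter, mRNA genes only, median-ratio rescaling, quantile normalization, no intensity trend, no block, 2-fold, and each line or arm alone. The limma fit was tried on simulated reads with the same changes in both lines and no difference between the lines. That check therefore does not cover the line differences seen here. Other steps used Python 3.11.15 with pandas 2.3.3, numpy 2.4.6, matplotlib 3.10.9 and scipy 1.17.1.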

Additional observations from a re-analysis of the deposited data

Results flagged for a closer look

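For 7 of the 35 genes the sign of the knockdown ratio was not the same in U87MG and U251. Each sign rests on a single pair of libraries, and the difference between the lines was not tested. HSP90B1 had log2 ratios of 0.50 in U87MG and -0.10 in U251, SPCS3 of 0.40 and -0.20, CANX of 0.15 and -0.14, and PDIA6 of 0.14 and -0.12. In the opposite sense, FKBP14 had -0.41 in U87MG and 0.020 in U251, ERN1 -0.25 and 0.078, and SSR1 -0.077 and 0.076. By counting intervals both ratios differed from 1 for HSP90B1, SPCS3, CANX, PDIA6 and SSR1, and the U251 interval held 1 for FKBP14 (0.931 to 1.11) and ERN1 (0.891 to 1.55).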

How the results depend on the processing

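Of the knockdown calls, 186 genes higher and 420 lower, and HSPA5 and CALR among the members, most depended on the settings; the causes were not tested. Genes called higher and lower numbered 364 and 772 with mRNA genes only, 303 higher with quantile normalization, 6 and 5 with median-ratio rescaling, 88 and 172 without the intensity trend, and 0 and 0 without the filter (1234 and 1890 at an unadjusted p under 0.05 by limma) and with no block for the cell line (79 and 183). Members called higher were 1 with a pseudocount of 0.1 (HSPA5), 6 with mRNA genes only (with DNAJB9, HERPUD1, PPIB and SDF2L1), and 0 without the filter, with median-ratio rescaling, without the trend and without the block (6, 12, 6 and 0 higher at an unadjusted p under 0.05). Quantile normalization called 3 (HSPA5, DNAJB9 and HERPUD1). No member was called lower under any setting. Median-ratio rescaling moved the median U87MG ratio of all genes to 0.0067 from -0.05. Between the lines, 1856 genes were called higher and 2430 lower without the filter and 1960 and 2482 without the block, and 11 members were called higher in either case, against 20.

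Members at least 1.5-fold higher in U87MG were 3 in place of 6 after quantile normalization, and 0 reached 2-fold, nor did the 3 higher and 2 lower in U251 (0 and 0). Between the WT libraries 7 members were at least 2-fold higher and 0 lower, against 9.48% and 12.1% of all genes tested. The median of the members in U87MG was 0.36 after median-ratio rescaling. After quantile normalization the U87MG median was 0.25 for chaperones and 0.083 for isomerases, and the U251 median of isomerases was -0.059. The sensor median in U87MG was 0.31 after median-ratio rescaling and 0.30 after quantile normalization, and 0.21 in U251 with a pseudocount of 0.1. Knockdown estimates that changed sign were those of HSP90B1 (-0.13), CANX (-0.088), PDIA6 (-0.055), P4HB (-0.027) and SSR1 (0.029) after quantile normalization and of TXNDC5 (0.0059) and SSR1 (0.053) after median-ratio rescaling. Line estimates that changed sign, all after quantile normalization, were those of CANX (-0.10), DNAJB11 (-0.053), PDIA6 (-0.038) and P4HB (-0.079). None of these estimates was called. Each line or arm alone leaves no residual degree of freedom, so no calls were counted there. Depth limits ERN1 most, with 94 reads in U251 WT.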
